A study of Mus musculus with 9 samples.

Results

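Gkn3, Rnase1, Fgfr2, Htr4, Pcdh8, Ripor2 and Cyria are 7 genes whose RNA stood lower in mouse small intestinal organoids whose TGF-beta receptors were inhibited and higher in organoids treated with the ligand TGF-beta1. They were chosen by exactly these values, the changes with inhibitor and with ligand from untreated organoids. Those values are therefore given as a description, without a test. Every probe set carrying 1 of the 7 gene symbols was taken, which gave 16 probe sets of the 45101 on the Affymetrix mouse expression array. At the gene level the 7 were part of 12941 genes measured above the filter on dim signals.

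The study held 9 arrays of organoids, closed epithelial cultures grown from small intestine, in 3 groups of 3. Cultures were kept for 6 days. From day 1 they received nothing, an inhibitor of TgfbR1/2 at 20 uM, or Tgfb1 ligand at 0.04 ng/mL, for 5 days. Mouse strain, age, the compound used as inhibitor, any vehicle and whether replicates are separate cultures are unstated in the labels, so p-values measure array-to-array spread only, technical or not.

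TGF-beta1 binds a type II receptor kinase, which recruits and activates a type I receptor kinase, and the type I receptor phosphorylates Smad2 and Smad3. These enter the nucleus with Smad4, bind short DNA elements known as Smad boxes and GC-rich elements, and raise or lower transcription together with other factors. In epithelia the pathway is known for holding back proliferation. The 7 genes span a secreted stomach-type protein (Gkn3), a secreted ribonuclease (Rnase1), a growth factor receptor (Fgfr2), a neurotransmitter receptor (Htr4), an adhesion protein (Pcdh8) and regulators of small GTPases and actin (Ripor2, Cyria).

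Array signals shared 1 scale, with a mean after trimming 2% at each end of 350.0 on every array and medians of 46.1 to 57.9. The filter level, the 40th percentile of an array, was a signal of 25.9 to 32 and marks where probe sets become too dim to follow. All 14 epithelial markers looked at, among them Epcam, Vil1, Cdx2, Lgr5 and Muc2, lay above it. Of 3 pathway targets looked at as a check of the treatments, Pmepa1, a feedback inhibitor, had a log2 change of -1.14 ± 0.11 with inhibitor (limma adjusted p 2.58e-06) and 1.55 ± 0.11 with ligand (1.11e-06). Skil, a repressor of Smads, rose by 1.27 ± 0.08 with ligand (3.74e-07) and had a change of 0.01 ± 0.08 with inhibitor (0.949). Smad7, an inhibitory Smad, had a change of 0.22 ± 0.15 with ligand (0.331), and its change of -0.39 ± 0.15 with inhibitor (0.0462) lost its call under 13 of 19 alternatives. Log2 changes here and below are differences of log2(signal + 16) from untreated, as estimate ± SE with n = 3 arrays in each group, and folds are on the same scale, so changes of signals near 16 are understated.

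Some epithelial markers moved with the treatments: of the 14, 2 rose and 4 fell with inhibitor, and 3 rose and 1 fell with ligand. Of all genes 21.2% rose and 23.9% fell with inhibitor, and 14.8% rose and 9.37% fell with ligand. The fall of Cdx2 and the rise of Krt18 were lost under median centring (adjusted p 0.202 and 0.267). The stem cell receptor gene Lgr5 fell by 0.68 ± 0.08 with inhibitor (limma adjusted p 2.32e-05) and rose by 0.74 ± 0.08 with ligand (3.57e-05). Krt20 and Vil1, markers of differentiated enterocytes, rose by 1.09 ± 0.07 (5.59e-08) and 0.51 ± 0.07 (7.07e-05) with inhibitor. Fabp1, also among the 14, was not called with inhibitor, with a change of -0.03 ± 0.11 (limma adjusted p 0.823). Nor was Fabp2, at 0.10 ± 0.10 (0.456, and 0.000674 under quantile normalization). Cdx1 had a change of -0.37 ± 0.10 with inhibitor (0.00609). Olfm4 had the largest change of the 14 with inhibitor, -3.96 ± 0.12 (1.3e-10). Markers of cells outside the epithelium were in part under the filter level. Only 2 of 10 fibroblast, 3 of 10 leukocyte, 2 of 8 endothelial and 3 of 6 neuronal and glial markers passed it on at least 3 arrays. Of 10 fibroblast markers 6 lay under the filter level on every array, including Col1a1, Col3a1 and Dcn, and the list's summed signal was 165 to 187 in untreated, 155 to 216 in inhibitor and 193 to 216 in ligand arrays. Of 10 leukocyte markers 6 did, including Ptprc and Cd3e, with sums of 250 to 310 in untreated, 392 to 447 in inhibitor and 225 to 283 in ligand arrays. Csf1r and Cd68, above the filter level on every array, rose with inhibitor. Laptm5, also above it on every array, had a change of 0.08 ± 0.15 with inhibitor (limma adjusted p 0.718). Of 8 endothelial markers 6 lay under the filter level on every array, including Pecam1 and Cdh5. Their list had sums of 239 to 306 in untreated, 209 to 261 in inhibitor and 411 to 466 in ligand arrays, where Esam rose by 0.99 ± 0.13 (limma adjusted p 9.17e-05). Esam, at signals of 103 to 366, also fell by 0.38 ± 0.13 with inhibitor (0.025, and up to 0.115 over the alternatives), so it moved in the same directions as the 7 genes. Of 6 neuronal and glial markers on the array 1, Uchl1, lay under the filter level on every array, and the sums were 120 to 173 in untreated, 207 to 253 in inhibitor and 174 to 190 in ligand arrays. The part of these signals in the results was not tested. The log2 ratio of the 3 prime to the 5 prime control probe sets of beta-actin, a measure of RNA integrity, was 0.37 to 0.43 in untreated, 0.18 to 0.24 in inhibitor and 0.40 to 0.58 in ligand arrays, while that of Gapdh was -0.27 to -0.25, -0.29 to -0.27 and -0.29 to -0.25. Its part in the results was not tested either.

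Gkn3, a member of the gastrokine family of secreted stomach epithelial proteins, has in the small intestine been used as a marker of the stem cell zone at the crypt base. Its representative probe set gave signals of 190.0, 229 and 210.4 in untreated arrays, 5.66, 22.4 and 20.0 in inhibitor arrays and 1304, 1330.4 and 1262 in ligand arrays. The 3 groups did not overlap, and the inhibitor arrays all lay under the filter level. The log2 changes were -2.86 ± 0.17 with inhibitor, a 7.25-fold lower value, and 2.55 ± 0.17 with ligand, a 5.84-fold higher value. On this probe set untreated arrays were at least 7.53-fold and ligand arrays at least 46.7-fold above the inhibitor arrays. Here the filter level stood in place of the dim signals, on signals without the offset as for all such bounds. The second probe set, whose _x_at suffix marks possible cross-hybridisation, read 226, 255 and 221 in untreated, 68.0, 44.3 and 57.9 in inhibitor and 1317, 1274 and 1364 in ligand arrays. It showed the same order with a smaller drop, -1.79 ± 0.12 (3.46-fold lower), and a ligand change of 2.42 ± 0.12. The bounds above thus hold for the first probe set only. In whole cultures such as these, fewer cells expressing a gene and less RNA per cell cannot be told apart.

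Rnase1, a secreted ribonuclease of the pancreatic type that degrades RNA outside cells, was represented by 1 probe set. Its signals were 865, 1049 and 1221 in untreated arrays, 296, 260.3 and 305 in inhibitor arrays and 2061, 2794 and 2406 in ligand arrays. Every array was well above the filter level and no groups overlapped. The change was -1.80 ± 0.13 with inhibitor (3.47-fold lower) and 1.20 ± 0.13 with ligand (2.30-fold higher). The sum of both changes, which is 0 for equal and opposite changes, was -0.59 ± 0.22.

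Fgfr2 encodes a receptor tyrosine kinase for fibroblast growth factors, of which the epithelial splice form receives signals from the mesenchyme. Its representative probe set, whose _s_at suffix marks probes shared between transcripts, read 304, 306 and 363 in untreated, 106, 101 and 126 in inhibitor and 764, 829 and 954 in ligand arrays. The 3 groups did not overlap on this probe set. Changes of -1.42 ± 0.11 and 1.35 ± 0.11 (2.68-fold lower, 2.54-fold higher) were close in size on this probe set and scale, with a sum of -0.08 ± 0.19. A second probe set read 64.7, 92.9 and 118 in untreated, 41.1, 47.0 and 49.0 in inhibitor and 226, 225 and 213 in ligand arrays, with changes of -0.78 ± 0.17 and 1.17 ± 0.17. The third lay under the filter level on all 9 arrays, between 2.85 and 17.8, and is no measure of the gene.

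Htr4, a serotonin receptor that signals through the stimulatory G protein and cyclic AMP, was dim outside the ligand arrays. Its representative probe set read 45.9, 64.2 and 58.9 in untreated, 1.24, 9.52 and 8.23 in inhibitor and 262, 286 and 217 in ligand arrays. All inhibitor arrays lay under the filter level and all others above it. The fitted changes were -1.71 ± 0.19 and 1.91 ± 0.19, and against the filter level untreated arrays were at least 2.01-fold and ligand arrays at least 9.13-fold above inhibitor arrays. The second probe set did not exceed the filter level on any array, with signals of 3.03 to 27.6. The sum of both changes was 0.20 ± 0.33, and the dim signals understate the change with inhibitor.

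Pcdh8 encodes a protocadherin, a cell surface protein of the cadherin family that acts in cell sorting and adhesion. Signals were 250.1, 314 and 320.4 in untreated, 36.9, 18.8 and 29.6 in inhibitor and 1069, 1257 and 892 in ligand arrays. The groups did not overlap, and 1 of the 3 inhibitor arrays was under the filter level. The log2 change with inhibitor was -2.82 ± 0.16 (7.06-fold lower) and with ligand 1.80 ± 0.16 (3.49-fold higher). The sum of both changes was -1.02 ± 0.28. The second probe set of Pcdh8, an _x_at set, read 270.4, 424 and 436 in untreated, 25.6, 29.5 and 25.9 in inhibitor and 1579, 1653 and 1359 in ligand arrays, with changes of -3.16 ± 0.16 and 2.00 ± 0.16. Both probe sets thus gave the same order and similar sizes.

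Ripor2 encodes an inhibitor of a small GTPase, and its probe sets disagreed. The brightest read 184, 237 and 219 in untreated, 75.8, 61.4 and 75.1 in inhibitor and 503, 535 and 529.95 in ligand arrays, with changes of -1.40 ± 0.11 and 1.24 ± 0.11 and no overlap. A second, close to the filter level in untreated arrays, read 29.3, 26.4 and 31.4 there, 38.5, 53.7 and 38.6 with inhibitor and 86.7, 76.4 and 69.1 with ligand. On that probe set the inhibitor arrays were higher than untreated, by 0.40 ± 0.17, and the ligand arrays by 1.05 ± 0.17. The 2 remaining probe sets read 21.5 to 37.4 and 25.2 to 28.4 in untreated arrays. Their groups overlapped, except that the ligand arrays of the dimmer one, at 19.5, 24.6 and 20.1, all lay under untreated. They also lay under its inhibitor arrays, which read 24.9 to 37.3. The lower level with inhibitor thus rests on 1 of 4 Ripor2 probe sets. With the mean of the probe sets in place of the brightest, the change with inhibitor was -0.20 and that with ligand 0.58, and the cause of the disagreement was not tested.

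Cyria, formerly Fam49a, encodes a protein that binds active Rac1 and limits its action on the WAVE complex, which drives branched actin at the cell edge. Signals were 42.3, 51.9 and 86.2 in untreated, 6.85, 8.02 and 13.1 in inhibitor and 162, 145 and 150.2 in ligand arrays. Untreated arrays spread most among the groups, with an SD of 0.42 on the log2 scale against 0.18 with inhibitor and 0.07 with ligand, yet stayed between both treated groups. The changes were -1.56 ± 0.21 and 1.18 ± 0.21. All inhibitor arrays lay under the filter level, so against that level untreated arrays were at least 2.07-fold and ligand arrays at least 5.48-fold higher. The second probe set was under the filter level on every array.

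**Figure D1:**
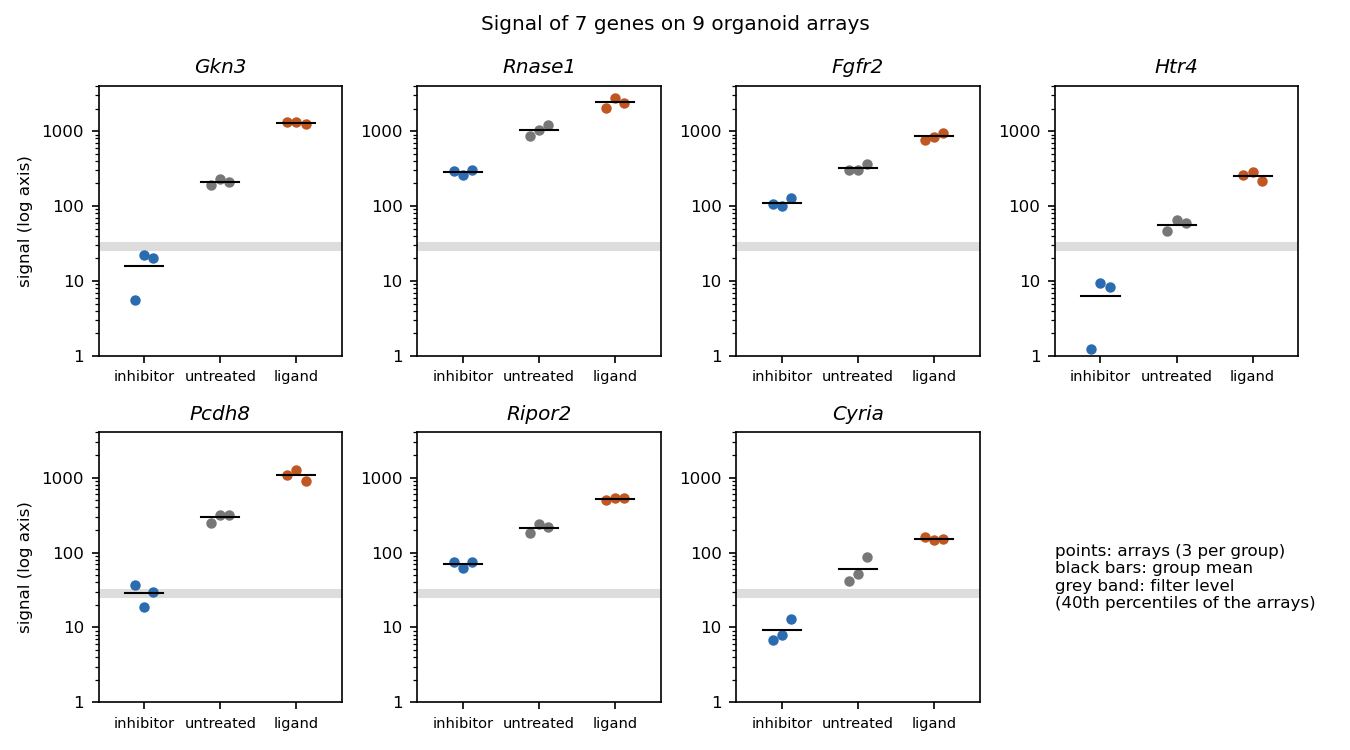
Signal (log axis) of the representative probe set of each of the 7 genes on every array, with 3 points a group, black bars at the group means and a grey band at the filter level (25.9 to 32). Inhibitor arrays lie lowest and ligand arrays highest in each panel, and the inhibitor arrays of Gkn3, Htr4 and Cyria all lie under the band.

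Across the 7 genes the log2 change with inhibitor ran from -2.86 (Gkn3) to -1.40 (Ripor2) with a median of -1.71, and that with ligand from 1.18 (Cyria) to 2.55 (Gkn3) with a median of 1.35. Over all 12941 genes the medians were -0.01 and 0.05. Both comparisons share the untreated arrays. Ligand and inhibitor arrays differed by 2.64 (Ripor2) to 5.40 (Gkn3). All 7 were called in both directions by limma, which is how they were chosen and says nothing further about them. Of all genes 45.1% were called in either direction with inhibitor and 24.1% with ligand, 23.9% were called lower with inhibitor, 14.8% higher with ligand and 5.08%, or 657 genes, both. In 9.4% of all genes the signals ran inhibitor, untreated, ligand without overlap, as they did in all 7 (29.3% for inhibitor under untreated and 24.2% for ligand over untreated). With an offset of 1 or 64 in place of 16 the inhibitor change was -3.24 or -0.77 for Htr4, -2.55 or -0.74 for Cyria and -3.82 or -1.78 for Gkn3, so sizes of dim members depend on the offset. Centring each array on its median lowered the median ligand change of all genes by 0.11, turned the share of ligand calls that were higher from 61.2% to 36.4%, and left 290 genes lower with inhibitor and higher with ligand, the 7 among them.

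Ordered by the smaller of both changes, the members stood at places 1 (Gkn3), 2 (Pcdh8), 3 (Htr4), 6 (Fgfr2), 7 (Ripor2), 9 (Rnase1) and 10 (Cyria) of those 657 genes. Places 4, 5 and 8 were held by Rgs13, Ano1 and Alox5ap, which are not members, with smaller changes of 1.53, 1.36 and 1.21. Just after Cyria at 1.18 came Rassf5 at 1.17 and Pmepa1 at 1.14. The rule that named the members states no threshold, so no value separates the 7 from these.

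**Figure D2:**
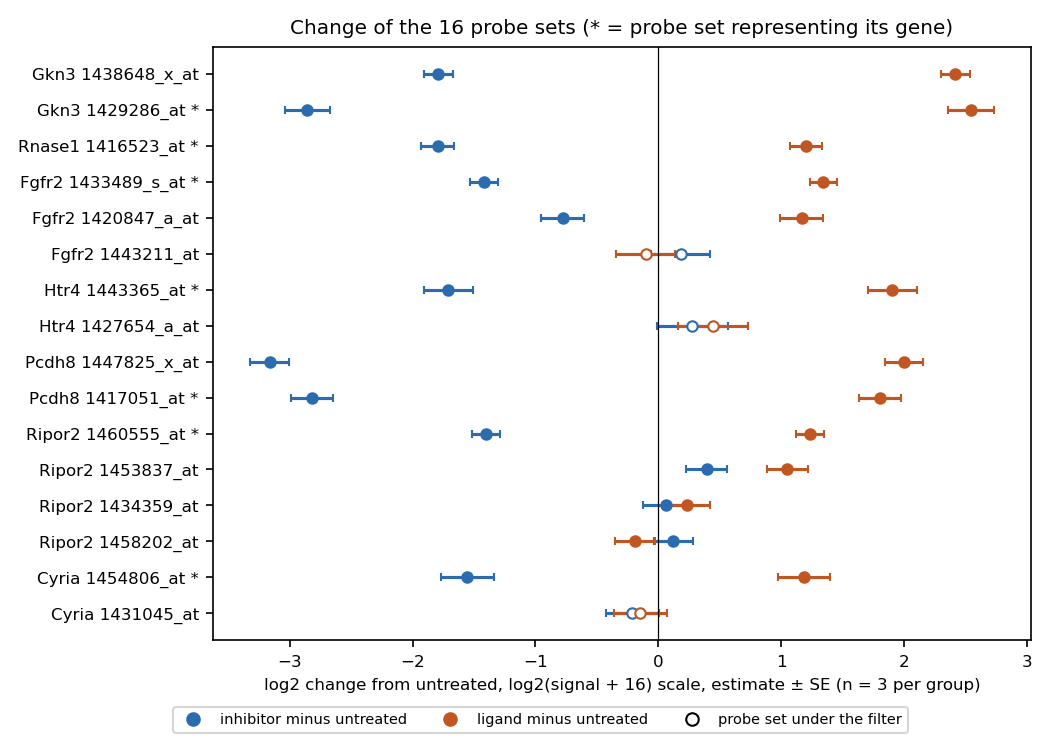
Log2 change from untreated (log2(signal + 16) scale, estimate ± SE, n = 3 arrays a group) of all 16 probe sets, blue for inhibitor and orange for ligand, with open symbols for the 3 probe sets under the filter. 10 probe sets lie lower with inhibitor and higher with ligand without overlap of signals, while 3 of the 4 Ripor2 probe sets do not. The genes were chosen for these directions, and at the gene level 9.4% of all genes had this order without overlap.

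Of the 16 probe sets, 13 passed the filter. In 10 of these the 3 groups were ordered inhibitor, untreated, ligand without overlap, and the 3 that were not all belonged to Ripor2. At the gene level 9.4% of all genes had this order, for which the members were chosen. The 3 probe sets under the filter belonged to Fgfr2, Htr4 and Cyria. A probe set could pass through the ligand arrays alone, so these counts describe the probe sets and support no statement about the genes.

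RefSeq windows from 250 bases before to 50 bases after the start site (GRCm38.p6) were taken for 6 of the members. Htr4 was left out, and there were 8 windows in all because Ripor2 has 3 starts. They are shown for the pair with the largest changes, Gkn3 (chr6:87388886-87389185, minus strand) and Pcdh8 (chr14:79771263-79771562, minus strand), and for the Ripor2 start that holds a Smad box (chr13:24638398-24638697, plus strand). Capitals mark matches to the motifs searched on both strands, which were the Smad boxes CAGAC and GTCTAGAC, the Smad GC element GGCGCC, the AP-1 site TGANTCA and the TCF site ATCAAAG.

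Each window runs 5′ to 3′ on the strand of its gene.
Gkn3: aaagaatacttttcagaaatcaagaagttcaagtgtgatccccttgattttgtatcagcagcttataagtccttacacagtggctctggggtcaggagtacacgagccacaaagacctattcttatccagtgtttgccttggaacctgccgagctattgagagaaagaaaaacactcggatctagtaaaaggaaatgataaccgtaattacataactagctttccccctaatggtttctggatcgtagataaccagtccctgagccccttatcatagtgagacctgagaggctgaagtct
Pcdh8: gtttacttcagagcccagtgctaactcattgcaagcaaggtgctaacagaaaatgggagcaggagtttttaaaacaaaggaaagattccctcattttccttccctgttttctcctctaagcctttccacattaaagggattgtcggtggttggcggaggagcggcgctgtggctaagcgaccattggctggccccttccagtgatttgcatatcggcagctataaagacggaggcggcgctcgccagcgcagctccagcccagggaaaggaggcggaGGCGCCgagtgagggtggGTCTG
Ripor2: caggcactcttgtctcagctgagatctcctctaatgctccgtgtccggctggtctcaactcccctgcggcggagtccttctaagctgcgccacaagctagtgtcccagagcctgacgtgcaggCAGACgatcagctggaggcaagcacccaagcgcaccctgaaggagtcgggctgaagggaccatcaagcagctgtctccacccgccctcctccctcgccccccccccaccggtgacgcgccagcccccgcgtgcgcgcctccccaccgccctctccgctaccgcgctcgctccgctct

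The Pcdh8 window held GGCGCC, from 27 to 32 bases after the start site counted as 0, and CAGAC in reverse, from 45 to 49 bases after it. The Ripor2 window held CAGAC with its first base at -127. The Gkn3 window held none of the motifs, nor did those of Fgfr2, Rnase1 and Cyria or the other 2 of Ripor2. CAGAC was thus in 2 of 8 member windows and in 49.6% of all 32851 windows, and GGCGCC in 1 of 8 against 11.9%. GTCTAGAC (0.213% of all windows), TGANTCA (7.81%) and ATCAAAG (3.73%) were in none of the 8. The windows also differed in base composition, with a G and C content of 42.7% in Gkn3, 43.7% in Fgfr2 and Rnase1, 54.3% in Pcdh8 and 66.3% in Cyria, against a median of 52.7% over all windows. A match is a run of letters and not a bound site, and a window without a match says nothing about the factor.

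The relatives and pathway partners of the members were not part of their choice and were tested. Of 146 such genes in 5 lists 88 were measured above the filter, and 4 of them, or 4.55% against 5.08% of all genes, fell with inhibitor and rose with ligand: the receptor gene Fgfrl1, the adenylate cyclase gene Adcy6, the phosphodiesterase gene Pde3b and the ribonuclease gene Ang. In each case limma called both changes at an adjusted p under 0.05. Of these only Fgfrl1 kept its ligand call in all alternatives, while that of Adcy6 was lost under 9 of the 19, with an adjusted p of up to 0.294. The ligand calls of Pde3b and Ang were lost under median centring (adjusted p 0.0921 and 0.136). That of Pde3b was also lost under quantile normalization (0.0623) and without untreated replicate 1 (0.0805) or ligand replicate 1 (0.0673), and that of Ang without untreated replicate 1 (0.0762).

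Fibroblast growth factor signalling runs from ligands through the receptors Fgfr1 to Fgfr4 to the adaptor Frs2, Grb2, Sos1 and the ERK cascade, with Sprouty, Spred and Dusp6 as feedback inhibitors. Of 40 genes besides Fgfr2, 28 were tested. With inhibitor 6 rose and 3 fell, a median change of -0.08 against -0.01 over all genes, where 21.2% rose and 23.9% fell. Dusp6, a phosphatase that switches off ERK, rose from a signal of 865 ± 24.1 (SD, n = 3) to 2473 ± 40.1 (adjusted p 6.45e-09). Dusp6 also rose with ligand, by 0.25 ± 0.07 (adjusted p 0.0168). That call was lost under median centring (0.355) and without untreated replicate 3 (0.0561). Fgfrl1, a receptor without a kinase domain, fell by 0.96 ± 0.09 (adjusted p 2.51e-06) and Fgfr3 by 1.01 ± 0.11 (adjusted p 7.71e-06). Esrp1, a splicing factor that favours the epithelial form of Fgfr2, fell by 0.57 ± 0.08 (adjusted p 4.61e-05).

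With ligand 10 genes of the same list rose and 1 fell, a median of 0.18 against 0.05, where 14.8% of all genes rose and 9.37% fell. Il17rd, a membrane inhibitor of the pathway, rose by 0.95 ± 0.11 (adjusted p 4.56e-05), Fgfr4 by 1.14 ± 0.14 (5.25e-05), Fgfrl1 by 0.62 ± 0.09 (0.000288) and the Sprouty gene Spry1 by 0.55 ± 0.11 (0.00233). Under median centring 6 rose and 1 fell. Among the receptors, Fgfr3 thus fell with inhibitor and had a change of -0.04 ± 0.11 with ligand (adjusted p 0.832), while Fgfr4 rose with ligand and had a change of -0.29 ± 0.14 with inhibitor (adjusted p 0.101, and 0.0261 without untreated replicate 2). The 3 probe sets of Fgfr1 read 3.92 to 35.1 and were not tested.

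Serotonin is made by Tph1 and Ddc, loaded into granules by Slc18a1, taken up by Slc6a4 and broken down by Maoa and Maob, while Htr4 acts through adenylate cyclases and protein kinase A. Of 32 listed genes 29 were tested, and with inhibitor 7 rose and 4 fell (median change 0.14), where 21.2% of all genes rose and 23.9% fell. Slc18a1 rose by 0.72 ± 0.10 (adjusted p 3.94e-05) and Adcy6 fell by 0.60 ± 0.08 (5.67e-05). Slc18a1 also rose with ligand, by 0.39 ± 0.10 (0.00899), a call lost under median centring (0.0795) and with the mean of the probe sets (0.15). The transcription factor gene Creb1 fell by 0.51 ± 0.07 (8.92e-05) and the kinase subunit gene Prkacb rose by 0.52 ± 0.09 (0.000293), though neither passed with the mean of the probe sets (0.171 and 0.306).

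With ligand 5 genes of the serotonin list rose and 4 fell (median 0.22), where 14.8% of all genes rose and 9.37% fell. This balance turned to 1 higher and 4 lower under median centring and to 3 and 4 under quantile normalization in the list. Maoa fell from 5539 ± 128 (SD, n = 3) to 2819 ± 227, a change of -0.97 ± 0.07 (adjusted p 1.73e-06). Maob fell by 1.29 ± 0.11 (4.76e-06) and Slc6a4, the serotonin transporter, by 0.94 ± 0.10 (1.88e-05), while Prkacb rose by 0.97 ± 0.09 (5.32e-06). Of the other serotonin receptors tested, Htr1a, Htr1b, Htr1d, Htr3a and Htr7, none was called by limma in either comparison. Htr1b passed with inhibitor under quantile normalization (adjusted p 0.0328) and without inhibitor replicate 3 (0.0337), as did Htr3a without that array (0.0234).

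The other gastrokines, Gkn1 and Gkn2, which are made by mucous cells of the stomach surface, were not measurable, with signals of 1.65 to 31.9 and 2.29 to 25.5. Of 21 further genes of the gastric epithelium 11 were tested. With inhibitor 2 rose and 3 fell (median -0.10), and with ligand 5 rose and 0 fell (median 0.51), or 3 with the filter at the 60th percentile. Of all genes 21.2% rose and 23.9% fell with inhibitor, and 14.8% rose and 9.37% fell with ligand. Among the 5, Vsig1 (adjusted p 0.041) lost its call under 14 alternatives. Cym, the protease chymosin, rose most of the list with ligand, from 30.2 ± 8.60 (SD, n = 3) to 14293 ± 1095 (adjusted p 1.17e-13). Anxa10, an annexin of the gastric epithelium, rose with both treatments, by 1.29 ± 0.16 with inhibitor (adjusted p 2.97e-05) and 1.41 ± 0.16 with ligand (4.53e-05). The calpain gene Capn9 fell by 1.04 ± 0.14 with inhibitor (5.54e-05) and the proton pump gene Atp4a by 0.62 ± 0.13 (0.0012). Gast, the hormone gastrin, was under the filter level on all untreated and ligand arrays and read 71.6 ± 15.7 with inhibitor, at least 2.54-fold above untreated (adjusted p 0.000119). Cblif, the gastric intrinsic factor, was under it on all untreated and inhibitor arrays and read 63.3 ± 13.2 with ligand, at least 2.25-fold above untreated (adjusted p 0.00029). Both passed the filter only through the group in which they were high, so they had to differ, and they count among the calls of the list. The trefoil factor Tff1 rose by 0.61 ± 0.14 with ligand (0.00519).

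**Figure D3:**
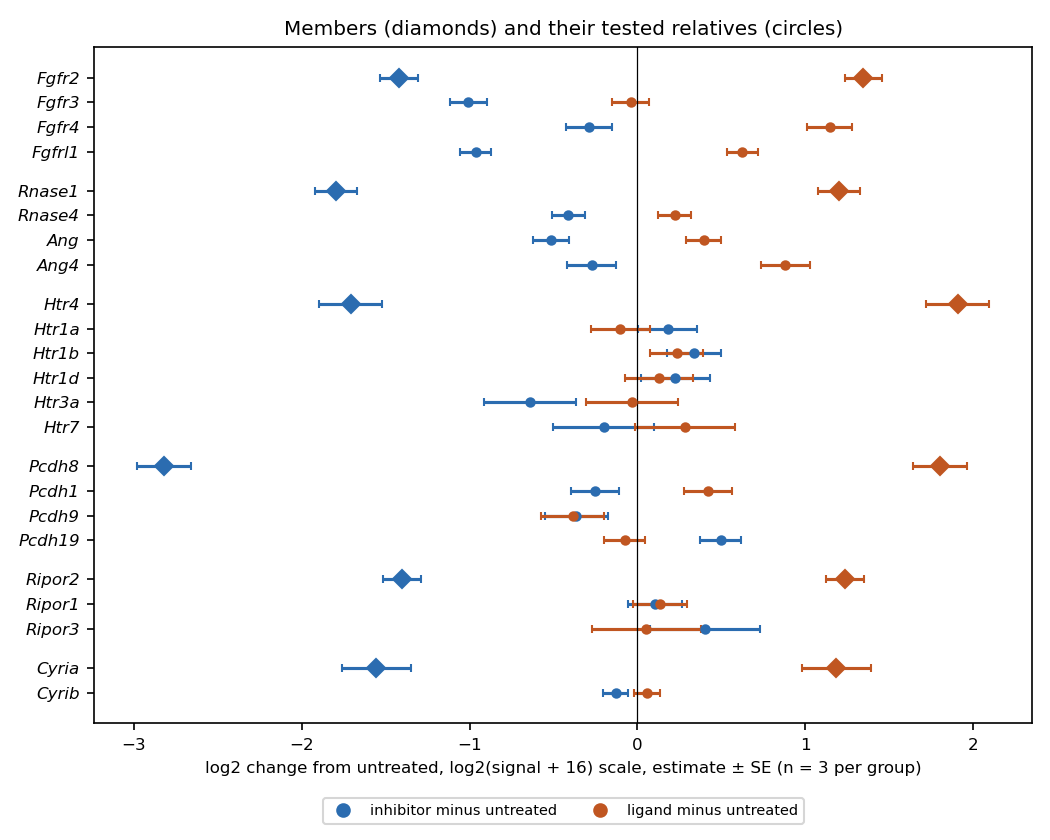
Log2 change from untreated (log2(signal + 16) scale, estimate ± SE, n = 3 arrays a group) of 6 members (diamonds) and their tested relatives (circles), blue for inhibitor and orange for ligand. Fgfrl1 and Ang are the relatives called lower with inhibitor and higher with ligand, and Cyrib, Ripor1 and Ripor3 were called in neither comparison.

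Of 23 secreted ribonuclease and inhibitor genes only 5 were tested, and 12 had no probe set named for them. With inhibitor 2 fell and 0 rose (median -0.29), and with ligand 2 rose and 0 fell (median 0.22), or 1 under median centring or without untreated replicate 1. Of all genes 23.9% fell and 21.2% rose with inhibitor, and 14.8% rose and 9.37% fell with ligand. Ang, which encodes the ribonuclease angiogenin, fell by 0.52 ± 0.11 with inhibitor (adjusted p 0.00129) and rose by 0.39 ± 0.11 with ligand (0.0151). Its probe set is shared between transcripts, and copies of the angiogenin family are alike in sequence, so the source of its signal is uncertain. Rnase4 fell by 0.41 ± 0.10 with inhibitor (0.00351) and had a change of 0.22 ± 0.10 with ligand (0.12, and 0.0397 under quantile normalization). Ang4, an antimicrobial angiogenin of Paneth and goblet cells, rose with ligand from 4403 ± 1062 to 7994 ± 1009.8 (0.88 ± 0.15, adjusted p 0.000726) and had a change of -0.27 ± 0.15 with inhibitor (0.148, and 0.00413 without untreated replicate 1).

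Cadherins and protocadherins other than Pcdh8 were tested for 15 of 30 genes, as the rest lay under the filter. With inhibitor 7 rose and 0 fell, a median of 0.31, where 21.2% of all genes rose and 23.9% fell. Among the 7, Cdh13 (adjusted p 0.0404) and Fat1 (0.0221) lost their calls under 7 and 4 alternatives. Cdhr2 and Cdhr5, the protocadherins that link brush border microvilli, rose by 0.87 ± 0.07 (adjusted p 1.01e-06) and 0.84 ± 0.10 (2.41e-05). Celsr1, an atypical cadherin of planar polarity, rose by 0.84 ± 0.15 (0.00044) and Cdh17, the liver-intestine cadherin, by 0.41 ± 0.09 (0.00188). With ligand 4 rose and 2 fell (median 0.02), which turned to 2 and 3 under median centring. Of all genes 14.8% rose and 9.37% fell with ligand. Cdhr5 fell by 0.49 ± 0.10 (0.00418), and Celsr2 and Celsr1 rose by 0.48 ± 0.11 (0.00669) and 0.60 ± 0.15 (0.0103). Dsc2, a desmosomal cadherin, rose by 0.36 ± 0.09 (0.0127), a call lost under median centring (0.141) and without untreated replicate 1 (0.0654) or ligand replicate 1 (0.0532). The rise of Pcdh1, by 0.42 ± 0.14 (0.0478), was lost under 14 alternatives.

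The tested relatives of Cyria and Ripor2 were not called by limma in either comparison: Cyrib had changes of -0.13 ± 0.08 and 0.06 ± 0.08, Ripor1 of 0.11 ± 0.16 and 0.13 ± 0.16, and Ripor3 of 0.40 ± 0.33 and 0.05 ± 0.33. Cyrib passed with inhibitor under quantile normalization (adjusted p 0.0389) and with the mean of the probe sets (0.00437), and Ripor3 without inhibitor replicate 1 (0.0437).

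**Figure D4:**
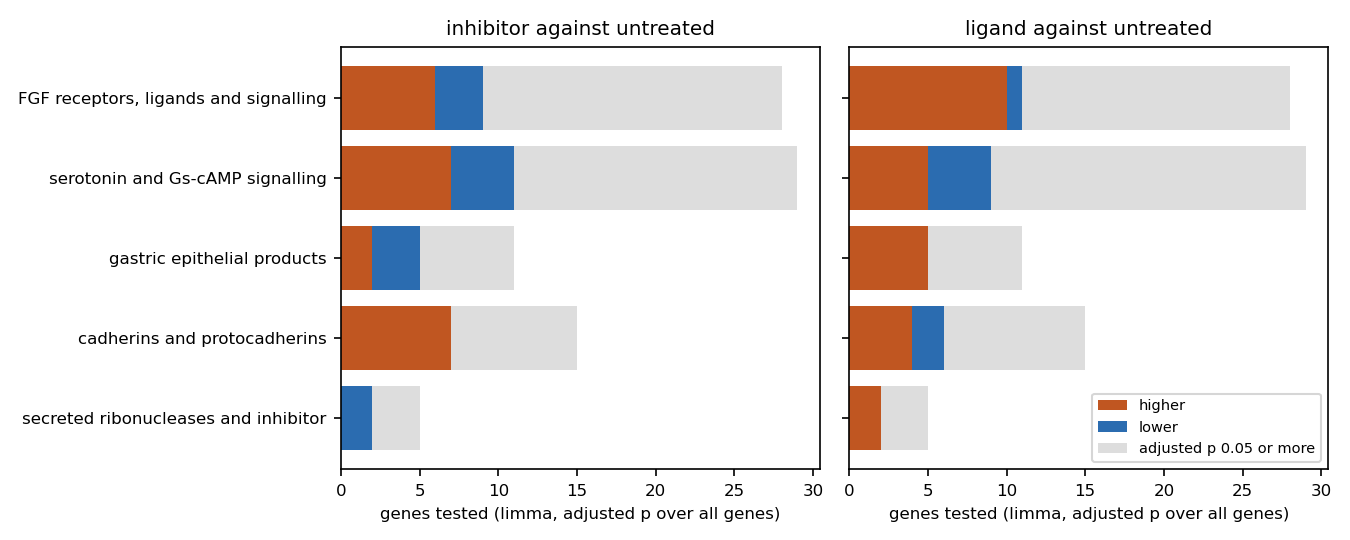
Number of tested genes in each of 5 lists that limma called higher (orange) or lower (blue) or did not call (grey) at an adjusted p of 0.05 over all 12941 genes, for inhibitor (left) and ligand (right) against untreated, with the members left out. The cadherin list has 7 higher and 0 lower with inhibitor and the gastric list 5 higher and 0 lower with ligand. Of all 12941 genes 21.2% were called higher and 23.9% lower with inhibitor, and 14.8% higher and 9.37% lower with ligand.

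The genes whose profile over the 9 arrays was most like that of a member, by Pearson's r of log2(signal + 16), were Auts2 for Gkn3 (0.995), the stem cell transcription factor gene Ascl2 for Rnase1 (0.996), the protease inhibitor gene Timp2 for Fgfr2 (0.996), the enteroendocrine transcription factor gene Nkx2-2 for Htr4 (0.994), the replication licensing gene Cdc6 for Pcdh8 (0.997), Greb1 for Ripor2 (0.997) and Ints14 for Cyria (0.995). To the mean of the standardised profiles of all 7 the most alike were Pimreg (0.998), Ascl2 (0.997), Ehf (0.996), Auts2 (0.996) and Greb1 (0.994). The arrays form 3 groups that the members separate by choice, so such values mainly restate the order of the group means, and 630 genes had an r above 0.95 to the mean profile. The measure ignores size: Ints14 had differences of -0.19 ± 0.06 and 0.15 ± 0.06 where Cyria had -1.56 and 1.18.

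The protein-coding genes beside the members in RefSeq's order along the chromosomes (GRCm38.p6), 2 on each side, were looked at after the other values had been seen. Of these 28 neighbours 10 were tested and 1 was called lower with inhibitor and higher with ligand. This was Mycn, a growth-promoting transcription factor gene next to Cyria, which fell by 0.97 ± 0.13 with inhibitor (limma adjusted p 4.57e-05) and rose by 0.58 ± 0.13 with ligand (0.00596, and 0.309 with the mean of the probe sets). Olfm4, a stem cell marker next to Pcdh8, fell by 3.96 ± 0.12 with inhibitor (adjusted p 1.3e-10) and had a change of 0.18 ± 0.12 with ligand (0.295). Ate1, next to Fgfr2, rose by 0.64 ± 0.07 with inhibitor (1.28e-05) and had a change of 0.04 ± 0.07 with ligand (0.762). Gmnn, near Ripor2, fell by 0.45 ± 0.07 with inhibitor (0.000179) and had a change of -0.16 ± 0.07 with ligand (0.122). Ddx1, near Cyria, fell by 0.26 ± 0.08 with inhibitor (0.0172, and 0.144 under median centring). Its change with ligand was 0.09 ± 0.08 (0.439). Of all genes tested 5.08% were called in these directions.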

How the data were processed

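The authors deposited linear intensities, 1 signal for each probe set and array, made with MAS5 per the submitters' processing notes. The MAS5 version and scaling step are not stated there. MAS5 leaves dim signals noisy, and 28.9% of values lay at or below 16. Of 45101 probe sets 34945 had 1 gene symbol in the platform annotation, 932 had several and 64 were controls. Signals were turned into log2(signal + 16) and kept where they passed the 40th percentile of their array on at least 3 arrays (23888 probe sets). A gene was represented by its brightest probe set, with _x_at sets used only where no other existed, which gave 12941 genes. Limma 3.58.1 in R 4.3.3 fitted a mean per group over 9 arrays (6 residual degrees of freedom) with an intensity trend, 2-sided p-values and the adjustment of Benjamini and Hochberg across these genes; rose, fell and called mean an adjusted p under 0.05. The script was tested on simulated data. Members and lists were chosen with earlier results of these data known. Named are the members, up to 4 called genes with the smallest p per list and comparison, the relatives, the most alike genes and Pmepa1; other list genes were named after their values were seen. A further gene list is not reported here. A planned comparison of protein sequences was not run, and no Htr4 sequence is shown. Alternatives were another offset, filter, scaling, probe set rule, variance model, a 2-group fit, a replicate block and leaving out each array. The 3 groups of 3 arrays limit the precision.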

Additional observations from a re-analysis of the deposited data

How the results depend on the processing

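All 14 member changes kept their direction under the 19 alternatives; 247 of 266 values moved by less than 1 SD between replicates and 19 by more, all with another offset or the mean of probe sets. The median member change with inhibitor, -1.71, was -2.55 with an offset of 1 and -1.15 with an offset of 64. All 7 were called in both directions under every alternative except the mean of probe sets, where Ripor2 was not. In the main analysis 5.08% of all genes were called so. The members were chosen by these contrasts on the same arrays, so kept calls and directions describe the processing and are no further support. Leaving out 1 array moved the median change from -1.82 to -1.53 with inhibitor and from 1.26 to 1.42 with ligand. The number of genes lower with inhibitor and higher with ligand, 657, was 290 under median centring and 436 to 669 with 1 array left out, the lowest without untreated replicate 1. Under median centring the ligand called 7 genes of the fibroblast growth factor list (11 in the main analysis), 5 of the serotonin list (9) and 1 of the ribonuclease list (2); the last had 1 to 2 with an array left out. With the filter at the 60th percentile, which tests fewer genes, the gastric list had 3 calls with ligand (5). For lack of a label that pairs the replicate numbers, and with correlations of deviations between same-numbered arrays of -0.08 to 0.07, they were not taken as pairs; with a replicate block 5759 genes were called with inhibitor (5837 without), 3007 with ligand (3123 without) and 629 (657 without) in both directions. Dim signals limit Htr4, Cyria and Gkn3 in inhibitor arrays.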
